A study of Mus musculus with 87 samples.

Results

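Polycomb repressive complex 2 (PRC2) consists of a core and one of 2 sets of accessory subunits. The 6 accessory genes described here were chosen by name as parts of PRC2.2 (Jarid2 and Aebp2) or of PRC2.1 (Mtf2, Phf1, Phf19 and Epop). They were read by gene symbol from 13 RNA-seq comparison tables of 26171 symbols each, and all 6 were present, with an adjusted p, in every table. The cells were mouse embryonic stem cells (ESC, line 129-B13) grown in 20% serum with LIF, and neuronal precursors (NP) differentiated from them as embryoid bodies, with retinoic acid on day 4 and harvest on day 8. The ESC groups were wild type (WT, 3 libraries), cells with constitutive Suz12 exon 4 (CSex4, 2), cells with Suz12 exon 4 deleted (Deltaex4, 2), the full Suz12 knock-out (KO, 3) and 4 rescued lines of that knock-out (2 each). The rescues carried the long Suz12 isoform (KO-L), the short isoform (KO-S), or either isoform placed in Rosa26 and bearing the mutation labelled 3D at position 196 (KO-L3D and KO-S3D). The NP groups were WT (4 libraries) and, with 2 libraries each, KO, KO-L, KO-S, CSex4 and Deltaex4. The labels do not say whether replicates were separate cultures or how many clones stand behind a line, so p-values measure the spread between these libraries, which may be technical.

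The PRC2 core, built on Suz12, Eed, Ezh1 or Ezh2 and Rbbp4 or Rbbp7, methylates lysine 27 of histone H3 (H3K27me3), a mark of repressed developmental genes. Accessory proteins bind the core through Suz12 in mutually exclusive sets. The Polycomb-like proteins Mtf2, Phf1 and Phf19 bind CpG-rich DNA and define PRC2.1, to which Epop can be added, whereas Jarid2 and Aebp2 define PRC2.2 and recognise ubiquitinated histone H2A.

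Levels are given as RPM, reads scaled to a library total of 1000000 reads on named genes, from whole reads of each library recovered from the tables. In GRCm38, Jarid2 spans chr13:44730774-44921643, Aebp2 chr6:140622454-140678472, Mtf2 chr5:108065660-108109219, Phf1 chr17:26933127-26937908, Phf19 chr2:34893752-34914353 and Epop chr11:97627387-97629716 in RefSeq. The 32 libraries held 23570194 to 47201666 reads each. Libraries found this way carry no replicate number and are lettered by rising total within their group. The targeted gene, Suz12, stood at 45.2 to 92.7 RPM in the 3 ESC KO libraries against 149 to 290 RPM in ESC WT, and at 41.9 and 43.9 RPM in NP KO against 105 to 197 RPM in NP WT. Its log2 fold change in the authors' deposited tables was -1.82 in ESC KO, 0.02 in ESC CSex4, -1.28 in ESC Deltaex4 (not called), -1.05 in ESC KO-L, -0.83 in ESC KO-S, -1.85 in ESC KO-L3D and -0.06 in ESC KO-S3D against WT. In NP it was -2.14 in KO, 0.70 in CSex4 and -0.61 in Deltaex4 against WT, 1.45 in WT against KO, and 1.35 and 1.09 in KO-L and KO-S against KO. Which part of the gene was removed is not given, and the long rescue with the 3D mutation stood near the knock-out in Suz12 RNA while the short one stood near WT. Summed over 6 pluripotency genes (Pou5f1, Nanog, Zfp42, Esrrb, Sox2 and Utf1), the ESC libraries held 1475 to 5057 RPM and the NP libraries 76.6 to 1330 RPM. Summed over 6 neuronal precursor genes (Nes, Pax6, Sox1, Tubb3, Dcx and Hes5), ESC held 28.9 to 458 RPM and NP 111 to 1250 RPM, and NP KO, CSex4 and KO-L lay wholly within the ESC range. Sums over 3 endoderm, 2 mesoderm and 2 fibroblast genes reached at most 214, 228 and 157 RPM in any library.

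3 features of the libraries touch the results below. First, outside ESC KO, in each of the 6 ESC tables, genes whose only read lay in WT library b had a median absolute log2 fold change of 0.00523 to 0.235, against 1.21 or more for WT libraries a and c. The effects there therefore rest on 2 of the 3 WT libraries, while ESC KO uses all 3. Next, the 2 NP CSex4 libraries differed from each other by a mean chi-square per gene of 2.34, above the value of 1 that counting noise gives but under the 10.2 to 132 of all other pairs within a group. The sources used here do not say whether these 2 are separate cultures; if they are 1 culture, every NP CSex4 test below, the contrasts with other lines included, has 1 replicate on that side and its p is too small. Last, NP WT library c differed from the other 3 NP WT libraries by 106 to 132, and those from one another by 21.0 to 55.8. The NP tables of KO, CSex4 and Deltaex4 against WT share WT libraries b and c, the NP WT against KO table holds a and d, and 4 NP tables share the 2 KO libraries.

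**Figure D1:**
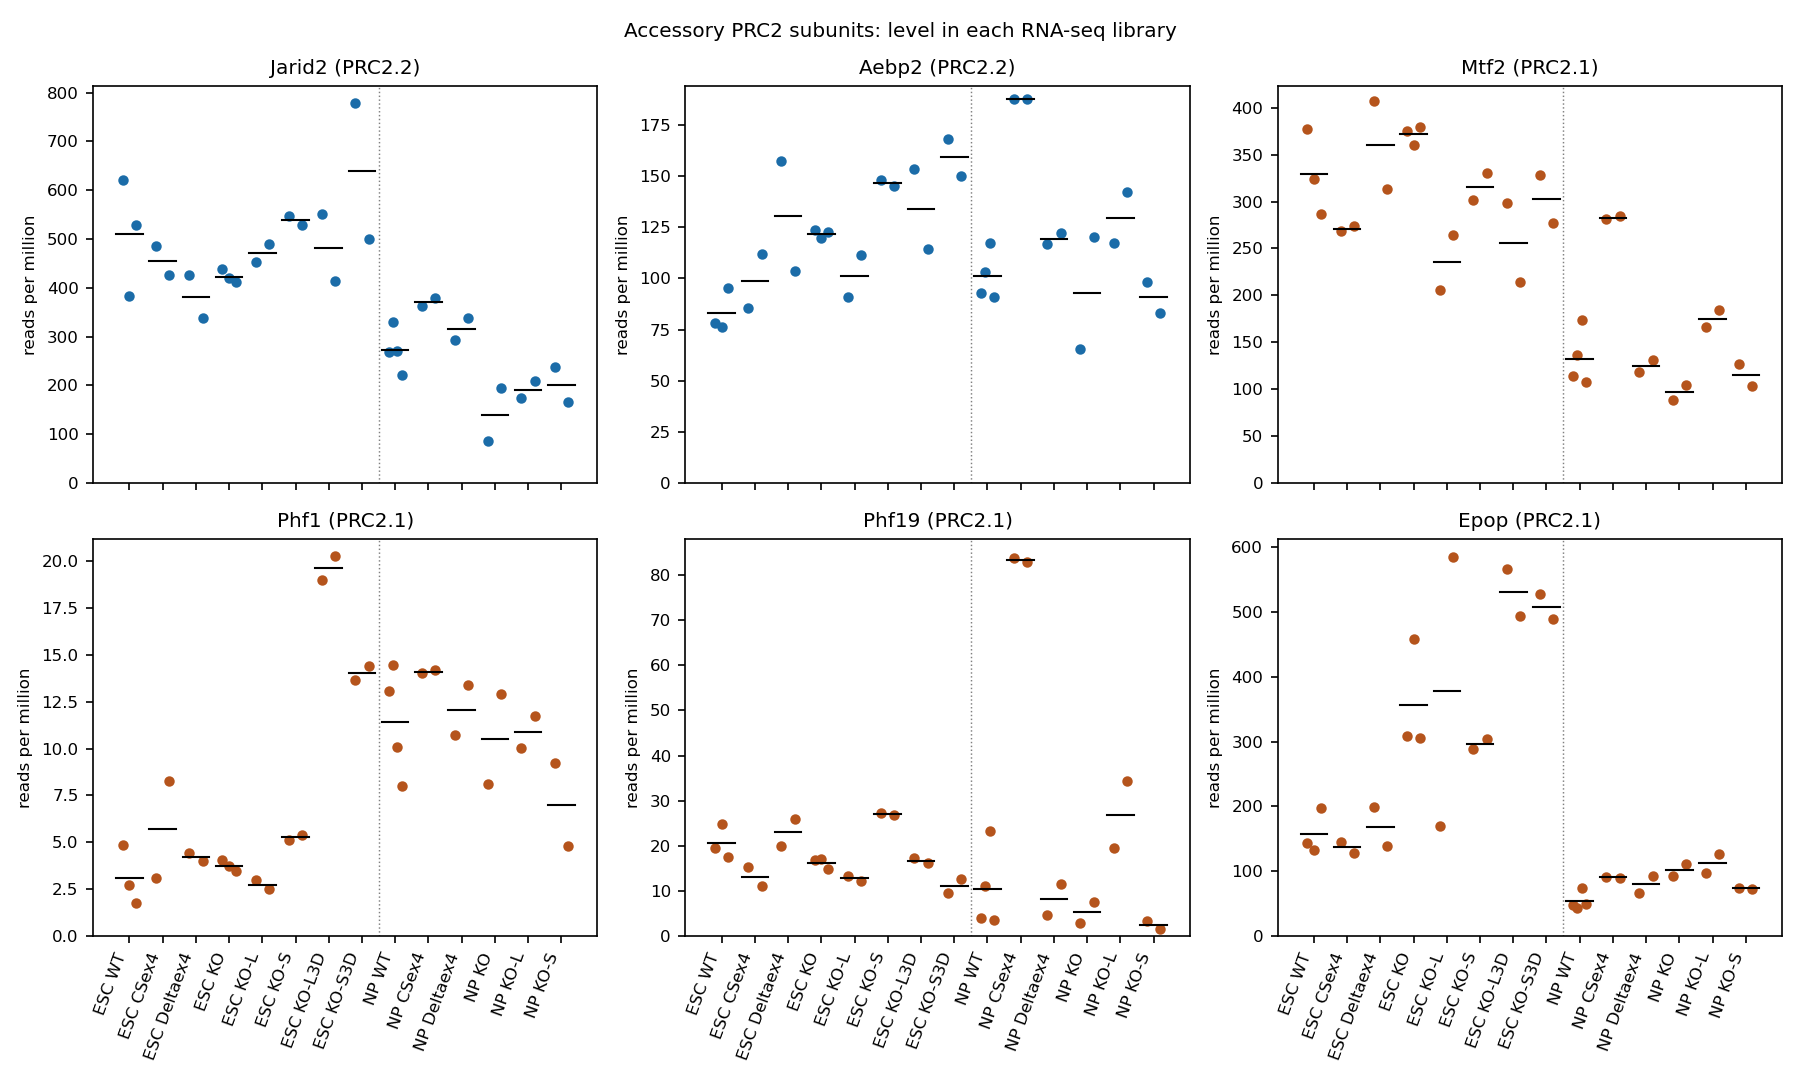
Level of each accessory gene (vertical axis, RPM, from 0) in all 32 libraries, by group; each dot is a library, each bar a group mean, and the dotted line separates ESC from NP. Phf1 stands at 19.0 and 20.3 RPM in ESC KO-L3D against 1.78 to 4.84 RPM in ESC WT, and Phf19 at 83.9 and 82.9 RPM in NP CSex4 against 3.47 to 23.2 RPM in NP WT.

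In unedited cells, 3 of the 6 accessory genes stood higher in ESC than in NP and Phf1 stood lower, without overlap between libraries. RPM of the 3 ESC WT and 4 NP WT libraries do not overlap for 66.8% of all genes with a mean of at least 1 RPM, so 4 of 6 is near the background. Jarid2 had 511 ± 120 RPM (SD, n = 3) in ESC WT and 273 ± 44.5 RPM (SD, n = 4) in NP WT. Mtf2 had 329 ± 45.8 RPM (SD, n = 3) and 133 ± 29.7 RPM (SD, n = 4). Epop showed the largest ratio of the 3, 2.95, with 158 ± 35.0 RPM (SD, n = 3) in ESC and 53.5 ± 14.4 RPM (SD, n = 4) in NP. Phf1 went the other way, from 3.11 ± 1.57 RPM (SD, n = 3) in ESC to 11.4 ± 2.92 RPM (SD, n = 4) in NP. Aebp2 (83.2 ± 10.4 RPM, n = 3, and 101 ± 11.9 RPM, n = 4, SD) and Phf19 (20.7 ± 3.81 RPM, n = 3, and 10.4 ± 9.20 RPM, n = 4, SD) overlapped. No deposited table sets ESC against NP, so these levels carry no test. By the sample counts given below for Phf1, ESC WT and NP WT also lie in different sets of samples. In bulk samples, fewer cells of a type and less RNA per cell cannot be told apart.

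Over the 13 comparisons, the authors' deposited tables gave 15 of 78 member effects an adjusted p below 0.05 (called here), 5 in ESC and 10 in NP. In ESC, 1 of 6 members was called in KO (18.3% of all genes tested), 2 in KO-L3D (18.3%) and 2 in KO-S3D (3.23%). No member was called in ESC CSex4 (2.41% of genes), KO-L (2.23%), KO-S (7.91%) or Deltaex4, where 0% of 20263 genes were. By the authors' DESeq2 test without adjustment, 0, 1, 2 and 0 members had p under 0.05 in those tables in that order, and limma on the recovered reads called 0, 0, 2 and 0. In ESC Deltaex4 135 genes had an unadjusted p under 0.05, and limma called 0 of 14587 genes there. The deposited log2 fold changes over their standard errors had a median-based SD of 0.557 there, over genes with at least 10 mean scaled reads. Without any effect, well-set standard errors give 1. The deposited test could thus call few genes in ESC Deltaex4, and no call there does not show no effect. In NP, 2 members were called in KO (21.4% of genes), 1 in CSex4 (5.53%), 2 in WT against KO (32.9%), 4 in KO-L against KO (24.7%) and 1 in KO-S against KO (34.5%). NP Deltaex4 had no called member (1 at an unadjusted p under 0.05, 0 by limma) and 0.0809% called genes. The same median-based SD was 0.566 there, so the same limit holds. The median log2 fold change of the 6 members ranged from -0.53 in NP KO to 0.68 in NP CSex4, beside -0.01 and -0.04 over all genes tested in those 2 tables.

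**Figure D2:**
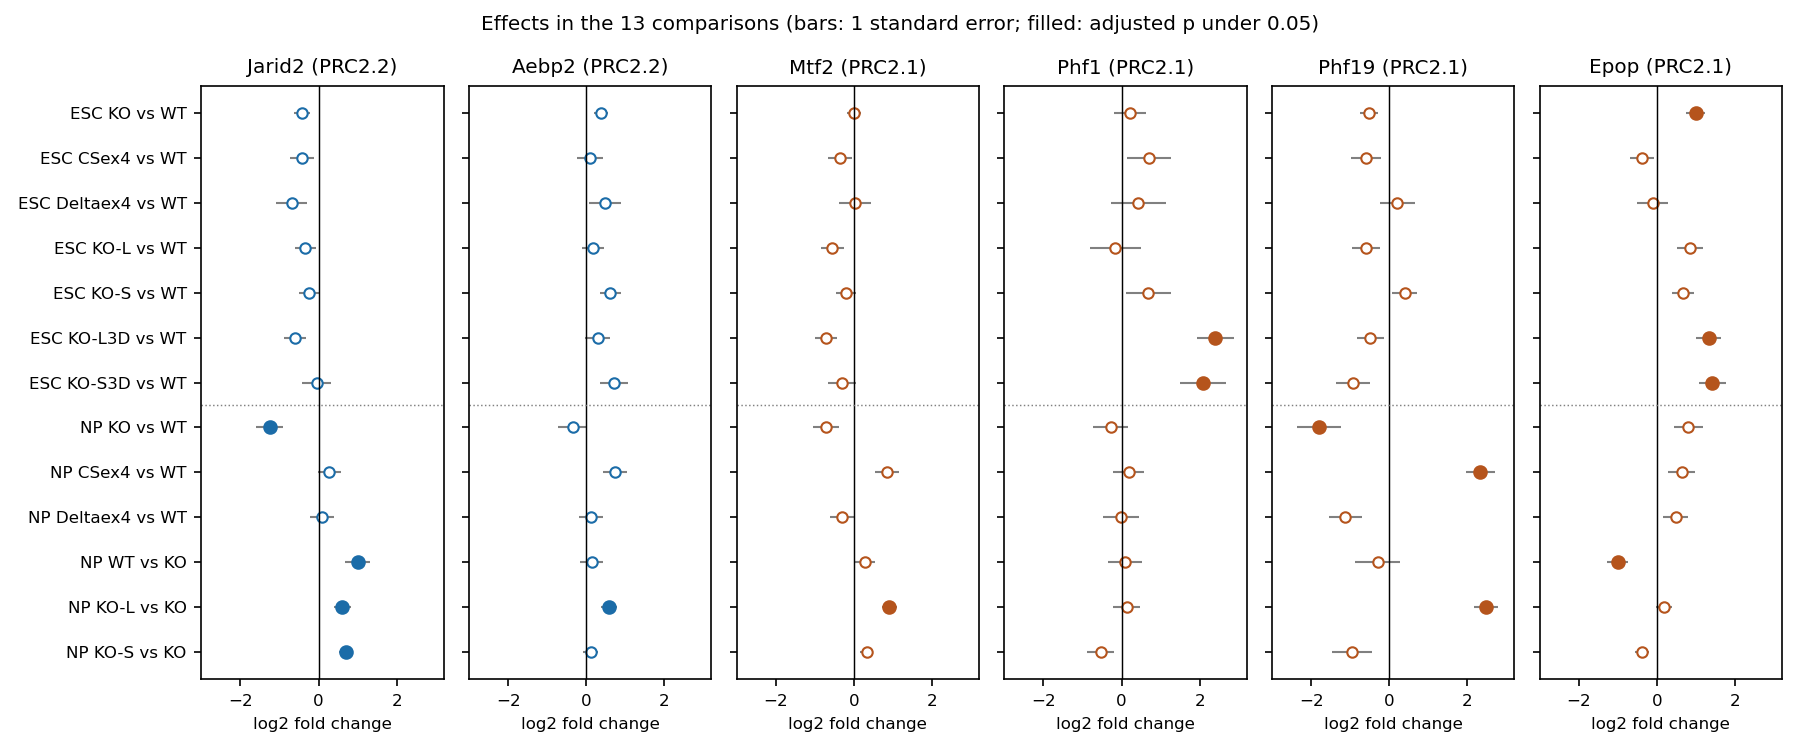
Log2 fold change of each accessory gene (horizontal axis) in the 13 deposited comparisons (rows), with 1 standard error; filled circles are the called effects of the authors' deposited tables. Filled circles stand in 3 ESC rows for Epop, 2 for Phf1 and none for the other 4 genes, and in 3 NP rows for Phf19 and 4 for Jarid2.

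Jarid2, the PRC2.2 subunit that links the complex to chromatin and is itself a substrate of PRC2, fell in NP without Suz12. NP WT libraries a to d had 268, 330, 270 and 221 RPM, and the 2 NP KO libraries 85.1 and 195 RPM. All 4 WT libraries lay above both KO libraries, although the KO libraries themselves lay far apart. Jarid2 fell by 1.25 ± 0.35 (log2, SE) in NP KO against WT (adjusted p = 0.00303 in the authors' deposited table; edge of the 95% interval nearest 0 at -0.56). In the table with the other WT pair, WT against KO, it was 1.00 ± 0.33 higher in WT (adjusted p = 0.00889 in the authors' deposited table). Both tables use the same KO libraries. In NP KO the 3 endoderm genes (Gata6, Sox17 and Foxa2) summed to 158 to 214 RPM against 32.8 to 116 RPM in NP WT, and the 6 neuronal precursor genes to 111 to 117 RPM against 393 to 1250 RPM. The part of these markers in the Jarid2 result was not tested.

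Jarid2 also stood above the knock-out in both NP rescues, by 0.61 ± 0.23 in KO-L (174 and 209 RPM; adjusted p = 0.0307) and by 0.70 ± 0.19 in KO-S (237 and 165 RPM; adjusted p = 0.00106), both as log2 with SE from the authors' deposited tables. These libraries overlapped with the higher KO library. Without the lower KO library, a, the log2 ratio of group means was 0.09 for KO-L and 0.18 for KO-S, against 0.52 and 0.62 with it, and without KO library b it was 1.15 and 1.25. For KO against WT it was -0.72 without KO library a and -1.79 without b. Limma on the recovered reads called neither rescue (adjusted p = 0.229 and 0.176) nor KO against WT (0.0724), but called WT against KO (0.0425). In ESC no Jarid2 effect was called: the log2 fold changes ran from -0.68 in Deltaex4 to -0.05 in KO-S3D, all below 0, and the lowest adjusted p was 0.123. These effects share WT libraries, so their common sign is not independent. WT library b, with 383 RPM against 622 and 528 RPM in a and c, had little weight outside ESC KO. With all WT libraries the log2 ratio of means was 0.19 in KO-S3D. In the other ESC comparisons it ran from -0.50 in Deltaex4 to -0.06 in KO-S. The ESC libraries spanned 339 RPM (Deltaex4) to 779 RPM (KO-S3D), and each group overlapped with its neighbours in the order of means.

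Aebp2, a zinc finger protein that stabilises PRC2.2, was called once. It stood above the NP knock-out in KO-L by 0.59 ± 0.21 (log2, SE; adjusted p = 0.0232 in the authors' deposited table). The KO-L libraries had 117 and 142 RPM and the KO libraries 65.3 and 120 RPM, which overlap, and limma gave an adjusted p of 0.147. Without KO library a the log2 ratio of means was 0.23, without b 0.96. In NP CSex4 both libraries had 188 RPM, above all 12 other NP libraries, whose highest had 142 RPM. The effect there was 0.73 ± 0.30 with an adjusted p of 0.164, not called. In ESC all 7 effects lay above 0, from 0.10 in CSex4 to 0.71 in KO-S3D, and none was called (lowest adjusted p 0.142). The 7 effects share WT libraries, so their common sign is not independent. ESC WT had 78.1, 76.3 and 95.2 RPM, and the 3 KO libraries 124, 120 and 123 RPM, above WT without overlap (log2 fold change 0.38 ± 0.18, adjusted p = 0.142). KO-S, with 148 and 145 RPM, was called by limma (0.69, adjusted p = 0.0285) while the authors' deposited table did not call it (0.62 ± 0.27, adjusted p = 0.162).

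Mtf2, the Polycomb-like protein that supports much of PRC2 recruitment in ESC, was called in NP KO-L against KO. The KO-L libraries had 166 and 184 RPM and the KO libraries 88.4 and 105 RPM, with no overlap. The difference was 0.91 ± 0.19 (log2, SE; adjusted p = 2.36e-05 in the authors' deposited table). Limma called it too (adjusted p = 0.00643). In KO-S, with 127 and 103 RPM, it was 0.33 ± 0.17 (adjusted p = 0.109). In NP CSex4, Mtf2 had 281 and 284 RPM against 107 to 173 RPM in NP WT, again without overlap, with a log2 fold change of 0.84 ± 0.31 and an adjusted p of 0.0849 that missed the threshold. In ESC the lowest values were in KO-L (206 and 265 RPM) and KO-L3D (298 and 214 RPM), against 378, 324 and 287 RPM in WT. Neither was called (-0.55 ± 0.29, adjusted p = 0.538, and -0.71 ± 0.28, adjusted p = 0.0563), and in ESC KO the effect was 0.00 ± 0.18.

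Phf1, a Polycomb-like protein with a Tudor domain that reads H3K36 methylation, rose in both ESC lines with a 3D rescue. ESC WT had 4.84, 2.70 and 1.78 RPM, KO-L3D 19.0 and 20.3 RPM, and KO-S3D 13.7 and 14.4 RPM. The other 5 ESC groups held 2.51 to 8.26 RPM, so the 4 libraries of the 3D lines were the 4 highest of 18 in ESC. The submitters describe the RNA-seq samples in 2 sets, of 14 and 18. In sample order, the 14 ESC samples outside the 3D lines come first. Those of the 3D lines come last, after NP. By these counts, ESC WT and the rescues without 3D lie in the first set, and the 3D lines and NP in the second. Within ESC the sets cannot be told apart from the 3D lines, and their part in the Phf1 rise was not tested. The rise was 2.40 ± 0.48 (log2, SE) in KO-L3D, or 5.28-fold (adjusted p = 2.29e-05), and 2.08 ± 0.58 in KO-S3D (adjusted p = 0.0182), in the authors' deposited tables. Limma on all 3 WT libraries also called both (adjusted p = 0.00785 and 0.0402). Without WT library b, which had little weight in the deposited fits, limma called KO-L3D (adjusted p = 0.0333) but not KO-S3D (0.162). In that KO-S3D fit limma called 0 of 14924 genes. The Phf1 effect differed between KO-L and KO-L3D (KO-L minus KO-L3D) by -2.56 ± 0.81 (adjusted p = 0.0391 by the test of the difference, under which 4.88% of genes were called). Between KO-S and KO-S3D the difference (KO-S minus KO-S3D) was -1.39 ± 0.82 (95% interval from -2.99 to 0.21) and did not pass (adjusted p = 0.989). Of the 2 mesoderm genes, Hand1 had 49.1 and 227 RPM in KO-L3D and 2.28 and 201 RPM in KO-S3D, against 0.769 to 2.11 RPM in WT. T had at most 1.46 RPM in the 3D lines, and 6.12 and 5.79 RPM in KO-L. Phf1 had 13.7 RPM in the KO-S3D library with 2.28 RPM of Hand1 and 14.4 RPM in the one with 201 RPM. The part of these genes in the Phf1 results of KO-L3D and KO-S3D was not tested. In NP, Phf1 held 4.78 to 14.5 RPM and no effect was called (log2 fold change -0.54 to 0.18). The gene span of Phf1 also holds the miRNA gene Mir6968.

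Phf19, another Polycomb-like protein that reads H3K36 methylation, showed the widest range of log2 fold changes of the 6 genes over the 13 comparisons, from -1.79 to 2.49, with both ends in NP. The 2 NP CSex4 libraries had 83.9 and 82.9 RPM and the KO-L libraries 19.4 and 34.4 RPM. NP WT had 3.89, 11.2, 23.2 and 3.47 RPM in libraries a to d, Deltaex4 4.67 and 11.6, KO 2.97 and 7.55, and KO-S 3.41 and 1.56 RPM. CSex4 stood apart from every other NP library, KO-L overlapped with WT library c alone. KO-S lay below WT and Deltaex4 and overlapped with KO, and WT, Deltaex4 and KO overlapped with one another.

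Phf19 rose in NP CSex4 against WT by 2.33 ± 0.36 (log2, SE), or 5.04-fold (adjusted p = 3.74e-08), and stood 2.49 ± 0.31 above the knock-out in KO-L (adjusted p = 3.05e-14), in the authors' deposited tables. Limma called the second (adjusted p = 0.0107) but not the first (0.103, and 0.955 or 0.976 with 1 of the CSex4 libraries left out); for NP CSex4 limma called 0 of 16136 genes, with 3619 at an unadjusted p under 0.05. Without KO library b the log2 ratio of means for KO-L against KO was 3.15, and without KO library a 1.95, beside 2.43 with both. Phf19 in KO-S was -0.96 ± 0.51 against the knock-out (adjusted p = 0.134; ratio of means -0.99, or -0.26 without KO library b), and in NP Deltaex4 -1.12 ± 0.43 against WT (adjusted p = 1.00). The contrast between the exon 4 lines was 3.46 ± 0.56 (CSex4 minus Deltaex4; adjusted p = 7.38e-07, 1.78% of genes called), and that between the isoform rescues 3.44 ± 0.59 (KO-L minus KO-S; adjusted p = 5.02e-07, 10.3% of genes called). In ESC the same contrasts were not called: CSex4 minus Deltaex4 was -0.80 ± 0.59 (adjusted p = 1.00, 0.0766% of genes called) and KO-L minus KO-S -0.99 ± 0.47 (adjusted p = 0.317, 3.94% called).

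The Phf19 knock-out effect in NP depended on the WT pair. Against WT libraries b and c it fell by 1.79 ± 0.57 (log2, SE; adjusted p = 0.0106 in the authors' deposited table). Against WT libraries a and d, the deposited WT against KO difference was -0.29 ± 0.57 (adjusted p = 0.753), which puts WT below KO. Without WT library c the log2 ratio of means in the first table moved from -1.77 to -1.15, and without KO library b to -2.50. For CSex4 it moved from 2.24 to 2.87 without that library, and for Deltaex4 from -1.09 to -0.45.

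The pluripotency gene Pou5f1, like Phf19, was highest in NP CSex4, but the order of the other NP libraries differed in part. KO library b had more Pou5f1 than WT library c (98.9 and 68.8 RPM) but less Phf19 (7.55 and 23.2 RPM). Pou5f1 had 249 and 245 RPM in CSex4, 122 and 190 RPM in KO-L, and 6.80, 26.2, 68.8 and 6.48 RPM in WT libraries a to d. Deltaex4 had 22.1 and 47.6 RPM, KO 16.9 and 98.9 RPM, and KO-S 28.7 and 24.0 RPM. Summed over the 6 pluripotency genes, CSex4 held 1309 to 1330 RPM, KO-L 623 to 916, WT 169 to 419, Deltaex4 282 to 385, KO 76.6 to 309 and KO-S 165 to 213 RPM. Sox2, which neural progenitors also express, made up much of the sum in WT (159, 188, 126 and 132 RPM) and Deltaex4 (195 and 160 RPM). Its level in CSex4 (203 and 197 RPM) was close to these, whereas Nanog had 426 and 419 RPM in CSex4, 164 and 241 RPM in KO-L, and 12.8 to 90.8 RPM in WT. Each of the 6 genes reached 1 RPM in at least 1 library of every NP group. The 6 neuronal precursor genes summed to 385 to 390 RPM in CSex4 and 339 to 454 in KO-L, against 393 to 1250 in WT, 1151 to 1157 in Deltaex4, 521 to 538 in KO-S and 111 to 117 in KO. KO, with the lowest neuronal sums, had 2.97 and 7.55 RPM of Phf19, which overlapped with WT. The fibroblast genes Col1a1 and Thy1 summed to 155 to 157 RPM in KO-L, and to at most 60.4 RPM in the other NP groups. The part of these markers in the Phf19, Mtf2, Aebp2 and Jarid2 results in NP was not tested.

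**Figure D3:**
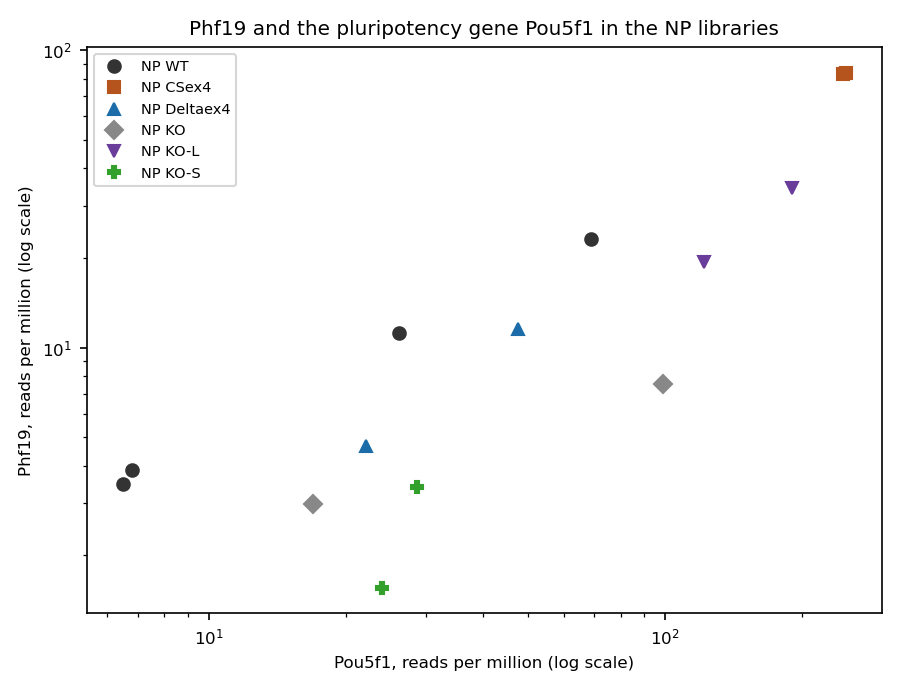
Phf19 (vertical axis) and Pou5f1 (horizontal axis) in the 14 NP libraries, both in RPM on log axes; each point is a library and its shape and colour mark the group. The 2 CSex4 libraries stand highest on both axes, at 83.9 and 82.9 RPM of Phf19 and 249 and 245 RPM of Pou5f1.

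In ESC, Phf19 held 9.64 to 27.3 RPM. WT had 19.6, 24.9 and 17.5 RPM, KO 16.8, 17.0 and 14.8 RPM, KO-S 27.3 and 26.8 RPM, and KO-S3D 9.64 and 12.6 RPM. KO, CSex4 (15.2 and 11.1), KO-L (13.4 and 12.2), KO-L3D (17.2 and 16.1) and KO-S3D lay below all WT libraries, Deltaex4 (19.9 and 26.0) overlapped with them, and KO-S lay above. The deposited tables of the authors called no ESC effect (-0.92 ± 0.43 in KO-S3D, adjusted p = 0.280; -0.51 ± 0.24 in KO, adjusted p = 0.117), while limma called both (adjusted p = 0.0441 and 0.0411).

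Phf19 was also the only one of the 6 genes with deposited ChIP-seq regions in the 2 lists labelled WT. What WT was compared with in these lists, if anything, is not stated. The ChIP-seq samples carry no day of retinoic acid or harvest, unlike the NP samples, whereas all called Phf19 effects were in NP. Phf19 lies at chr2:34893752-34914353 on the minus strand (GRCm38). A Suz12 region at chr2:34912815-34914392 covered the RefSeq start site used here, 34913976, from 416 bases before it to 1161 bases beyond it. An H3K27me3 region at chr2:34911255-34915042 reached from 1066 bases before this start to 2721 bases beyond it. The start used lies inside the gene span, as do the 250 bases before it. Both regions also cover the upper end of the span, 34914353. The values the authors gave these regions were 4.3e-09 (rank 1881 of 2865, from the smallest) and 1.09e-18 (rank 2580 of 6882), and the list headers do not say whether they are p-values or false discovery rates. The lists' build is not in their headers; mm10 is named in the submitters' processing notes, and 56.9% of the Suz12 and 42.9% of the H3K27me3 regions overlap a RefSeq promoter window of GRCm38.p6. The nearest listed region of either kind lay 46.9 kb from Phf1, 53.1 kb from Epop, 157 kb from Jarid2, 178 kb from Aebp2 and 253 kb from Mtf2. No region within 2500 bp says only that none passed the lists' threshold.

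**Figure D4:**
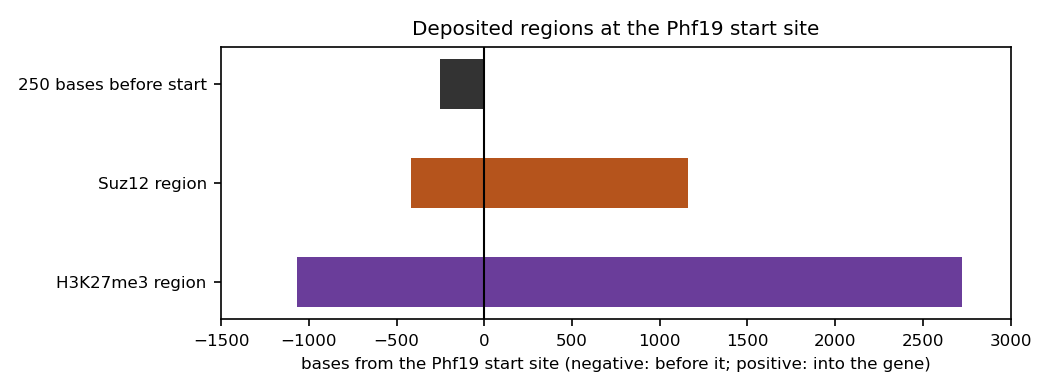
The Suz12 and H3K27me3 regions (bars) along Phf19, with distance from the RefSeq start site on the horizontal axis in bases (negative before the start, positive into the gene), to scale. Both bars cover the start site used and the 250 bases before it, which lie inside the gene span.

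Because both regions cover the Phf19 start and the Polycomb-like proteins bind CpG-rich DNA, the CG dinucleotide was counted in the 250 bases before each RefSeq start (GRCm38.p6; the letters CG read the same on both strands). Phf19 had 31, and 5.19% of 32851 promoter windows had as many. Jarid2, Mtf2 and Phf1 had 23 each in their richest window (13.3% of windows had as many) and Aebp2 14 (29.4%), against a median of 6. High CG counts were thus also found at 3 members without a listed region. The windows counted for Phf19 and Aebp2 lie inside the gene spans given above. The 30 bases with the most CG in each richest window are shown from 5′ to 3′ on the gene's strand with CG in capitals, and Epop had no entry.
Phf19, chr2:34914067-34914096, minus strand: cCGCGgCGccccCGcccCGcccCGccccCG
Mtf2, chr5:108065609-108065638, plus strand: agggCGCGgtgttcctcCGCGctCGcCGCG
Phf1, chr17:26932955-26932984, plus strand: gtgCGgCGcacaggCGgggttaCGCGtgCG
Jarid2, chr13:44730563-44730592, plus strand: gttcctCGctccCGgaccacaCGctcCGCG
Aebp2, chr6:140624824-140624853, plus strand: tccCGggCGgcCGcCGCGcccctcttgcCG

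Epop, which joins PRC2.1 to elongin proteins, was higher in the knock-out than in WT in both cell states. In ESC it was also higher in both 3D rescues, of which KO-S3D had 332 and 185 RPM of Suz12, against 149 to 290 RPM in ESC WT. ESC WT had 143, 133 and 198 RPM, the 3 ESC KO libraries 308, 458 and 305 RPM, KO-L3D 567 and 494 RPM, and KO-S3D 528 and 489 RPM. None of these overlapped with WT. By the sample counts given for Phf1, the 3D lines and ESC WT lie in different sets of samples, which cannot be told apart from the 3D lines. Epop rose by 0.99 ± 0.25 (log2, SE) in KO (1.99-fold, adjusted p = 0.000871), by 1.32 ± 0.31 in KO-L3D (adjusted p = 0.000475) and by 1.42 ± 0.34 in KO-S3D (adjusted p = 0.00297), in the authors' deposited tables. Limma called all 3 (adjusted p from 0.00784 to 0.0340). Without WT library b, limma called KO-L3D (adjusted p = 0.0342) but not KO (0.0575) or KO-S3D (0.151). The pluripotency genes summed to 3673 to 4421 RPM in KO, 3782 to 5057 RPM in KO-L3D and 3487 to 4238 RPM in KO-S3D, all above the 2567 to 3366 RPM of ESC WT, and their part in the Epop result was not tested. KO-S, with 288 and 304 RPM, also lay above WT, but 0.66 ± 0.28 was not called in the deposited table (adjusted p = 0.138) and was by limma (0.79, adjusted p = 0.0441). Its pluripotency sums, 3105 to 3379 RPM, overlapped with those of WT. The 2 KO-L libraries disagreed, at 170 and 585 RPM, and the effect was not called (0.85 ± 0.33, adjusted p = 0.215); without the higher one the log2 ratio of means was 0.05 and without the lower one 1.84. Nanog had 592 RPM in the KO-L library with high Epop and 245 RPM in the other, and Pou5f1 had 879 and 756 RPM. Deltaex4 library a had 608 RPM of Nanog and 199 RPM of Epop. The part of these genes in the KO-L difference was not tested. CSex4 (146 and 128 RPM) and Deltaex4 (199 and 139 RPM) overlapped with WT.

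In NP, Epop had 47.4, 43.2, 74.8 and 48.7 RPM in WT libraries a to d and 93.2 and 111 RPM in KO, without overlap. WT libraries a and d were lower than KO, with a 95% interval of the log2 difference from -1.53 to -0.47 (limma's adjusted p = 0.00259; the authors' deposited table gives 0.00121). Against WT libraries b and c the KO effect was 0.81 ± 0.37 (adjusted p = 0.109), and without WT library c its log2 ratio of means moved from 0.75 to 1.20. The endoderm and neuronal precursor sums given for NP KO beside Jarid2 hold here too, and their part in the Epop result was not tested. Neither rescue was called against KO: KO-L had 97.6 and 127 RPM (0.17 ± 0.20, adjusted p = 0.618) and KO-S 74.6 and 72.9 RPM (-0.38 ± 0.17, adjusted p = 0.0751).

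Differences of effects were tested for 10 pairs of comparisons, with adjustment over all genes with baseMean (the mean scaled reads of a table) of at least 10 in both. Between ESC and NP, only the Phf19 effect in CSex4 differed: it was -0.59 ± 0.39 in ESC and 2.33 ± 0.36 in NP, a difference (ESC minus NP) of -2.92 ± 0.53 (adjusted p = 8.03e-06, 4.97% of genes called). For Mtf2 in CSex4 the difference was -1.21 ± 0.43 (adjusted p = 0.0825). For KO, no member differed between ESC and NP (14.3% of genes did). The Jarid2 difference was 0.82 ± 0.40 (adjusted p = 0.173, 95% interval from 0.04 to 1.61), and that of Epop 0.19 ± 0.44 (95% interval from -0.68 to 1.06, adjusted p = 0.853). For Deltaex4 none of the 6 was called, and 0.0071% of genes were. Within ESC, no member differed between KO-S and KO-S3D (0.732% of genes) or between KO-L3D and KO-S3D (0.0541%), where Phf1 differed by 0.33 ± 0.76. The tests between lines ignore the shared control libraries. They therefore err on the cautious side where these weigh alike.

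Of the 6 core genes, 4 fell in ESC KO (Suz12; Eed, -0.56; Rbbp4, -0.53; Rbbp7, -0.84) and 5 in ESC KO-L3D, where the methyltransferase gene Ezh2 had a log2 fold change of -1.70 ± 0.28 (adjusted p = 1.8e-07), Eed -0.83, Rbbp4 -1.23 and Rbbp7 -1.40, in the authors' deposited tables. Suz12 alone fell in ESC KO-L and KO-S, and no core gene was called in ESC CSex4, Deltaex4 or KO-S3D. In NP KO, Suz12 and Ezh2 (-2.15) fell and Rbbp7 (0.96) rose, with the same 3 called in WT against KO (Ezh2 2.28, Rbbp7 -1.05). Against the NP knock-out, Ezh2 was higher in KO-L (1.46) and KO-S (1.93), Rbbp4 was higher in both (0.58 and 0.47), and Rbbp7 was lower in KO-L (-0.98). Among 5 further genes, Ezhip, an inhibitor of PRC2, rose in ESC KO (2.15 ± 0.32) and NP CSex4 (2.21 ± 0.54). It was lower in NP WT (-4.80 ± 0.95) and KO-S (-3.29 ± 0.83) than in KO. These last effects rest on few Ezhip reads. WT libraries a and d held 3 and 6 reads, both KO-S libraries 7 to 10, whereas the KO pair ranged from 30 to 209. Against WT libraries b and c, which held 41 and 74 reads, Ezhip was not called in NP KO. Lcorl, a PRC2.1 partner, fell in NP KO (-1.44), and was higher in WT (1.58) and KO-S (1.29) than in KO. The H3K27 demethylase gene Kdm6a fell in ESC KO (-0.50) and KO-L3D (-1.19), Kdm6b was higher in NP WT than in KO (0.73), and Lcor was never called.

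The genes with the most similar log2 fold changes over the 13 comparisons, among 10237 genes with baseMean of at least 100 in all tables (10238 for Phf1, which did not meet that floor itself), were Cnot10 and Exosc10 for Jarid2 (Pearson's r 0.969 and 0.965) and Plekhg5 and Pde4a for Aebp2 (0.886 and 0.836). For Mtf2 they were Hrob and Fanci (0.971 and 0.953), for Phf1 Gm5512 and Ppp1r37 (0.948 and 0.911), for Phf19 Pecam1 and Ranbp17 (0.913 and 0.903), and for Epop Tpst2 and Man1c1 (0.962 and 0.945). Among the members themselves, r was 0.80 for Mtf2 with Phf19, 0.73 for Jarid2 with Mtf2, 0.30 for Jarid2 with Aebp2 and -0.53 for Jarid2 with Epop. The 13 comparisons share libraries, so these values are descriptions.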

How the data were processed

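Polyadenylated RNA was sequenced in 32 of the 87 samples; per-sample ChIP-seq data (55 samples) were not analysed here. TopHat, Bowtie, DESeq2 and DiffBind, and the builds mm10 and dm3, are named in the submitters' processing notes; versions and roles are not given in the sources used here. Per the file headers, the authors deposited for each gene a baseMean (a signal: mean of scaled reads), a log2 fold change with its standard error, a score (the statistic, their quotient), a p-value and an adjusted p-value. File names call the fits paired. Values per region in the 2 lists, made at a false discovery rate of 5% per the file headers, were used as the authors deposited them.

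Because baseMean is a sum of whole reads over size factors, given to 15 digits, the reads of all 26171 genes (100%) were solved from tables that share libraries, giving 60 library places filled by 32 libraries. On simulated data, 1494 of 1500 ESC genes and 1500 of 1500 NP genes were recovered exactly, and all under a baseMean of 20000. A library's group follows from the tables that hold it, and group sizes match the labels. Precision is limited by the 2 to 4 libraries per group; total reads per library were 23570194 to 47201666.

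Calls used the authors' adjusted p under 0.05. Differences of 2 effects were tested as a z value from both standard errors (two-sided, Benjamini-Hochberg over genes with baseMean of at least 10), a test tried on simulated data. The simulated effects had normal errors of exactly the deposited standard errors. That trial therefore cannot show whether the deposited standard errors suit these data. As an alternative chosen after seeing the data, limma 3.58.1 (R 4.3.3) was run on log2(scaled reads + 1) for genes with baseMean of at least 10. In simulated reads with 200 genes changed 4-fold it recovered 91.0% (NP KO-L against KO) to 99.5% (ESC KO against WT). The simulated libraries were independent, with 1 fixed spread for all genes that was not taken from these data. These shares therefore do not give limma's power here. For NP CSex4 the share was 96.5%, while limma called 0 of 16136 genes in the real reads. Python 3.11.15, numpy 2.4.6, pandas 2.3.3 and scipy 1.17.1 were used. The members, the other PRC2 genes and the marker lists were chosen with earlier results of these data known. Genes named with values are the members, the other PRC2 genes that were called, Suz12, the markers, and the 2 genes most like each member. Gene positions and promoters came from RefSeq (GRCm38.p6); 5 of the 6 members had a promoter entry.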

Additional observations from a re-analysis of the deposited data

Results flagged for a closer look

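4 results stand out because the effect of one comparison differed from that of another by a test of the difference. The Phf19 effect of constitutive exon 4 in ESC minus that in NP was -2.92 on the log2 scale (SE 0.53, adjusted p = 8.03e-06), with both NP CSex4 libraries above all NP WT libraries and both ESC CSex4 libraries below all ESC WT libraries. Within NP, the Phf19 effect of CSex4 exceeded that of Deltaex4 by 3.46 (SE 0.56, adjusted p = 7.38e-07), and that of KO-L exceeded that of KO-S by 3.44 (SE 0.59, adjusted p = 5.02e-07). Both contrasts with NP CSex4 rest on 2 libraries that may be 1 culture. In ESC, the Phf1 effect of KO-L minus that of KO-L3D was -2.56 (SE 0.81, adjusted p = 0.0391), with both KO-L3D libraries above both KO-L libraries. By the sample counts, KO-L and KO-L3D lie in different sets of samples. No library of the 4 NP WT libraries lay far enough from the others, for any of the 6 genes, to pass Dixon's test at 95%; the other groups are too small for it.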

How the results depend on the processing

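Of the 15 called effects, 11 were also called under all 4 planned changes of the adjustment, filter, centring and threshold; the other 4 were lost at an adjusted p under 0.01 alone, which left 1 called member in ESC KO-S3D, 1 in NP KO and 2 in NP KO-L against KO. Leaving out a library in turn turned the sign of the log2 ratio of means for none of the 15. No paired analysis was possible because the tables have no column per sample and recovered libraries carry no replicate number. The limma fit with no replicate block called 9 of the 15 effects and 4 others. It called 2 members in ESC KO (4064 of 15094 genes called) and 2 in ESC KO-S (2667 of 14678). There were 2 in ESC KO-L3D (4561 of 15166) and 3 in ESC KO-S3D (991 of 14924). In NP there were 2 in WT against KO (7174 of 16212) and 2 in KO-L against KO (4051 of 15911). Called members were 0 in NP KO (2057 of 16198), 0 in NP CSex4 (0 of 16136) and 0 in NP KO-S against KO (4396 of 15930). The limma fit turned the sign of 2 uncalled effects, Epop in ESC Deltaex4 (0.019) and Jarid2 in ESC KO-S3D (0.16). Leaving out 1 library at a time in that fit, called members ranged from 0 to 3 in ESC KO, 0 to 3 in ESC KO-S, 1 to 2 in ESC KO-L3D, 0 to 3 in ESC KO-S3D, 0 to 1 in NP KO, 0 to 6 in NP CSex4, 0 to 3 in NP WT against KO, 1 to 4 in NP KO-L against KO and 0 to 2 in NP KO-S against KO. Where 1 library was left on a side it was assumed to vary like the other group; in NP CSex4 the 6 came from a fit whose spread rests on the near-identical CSex4 pair. The number of all genes called also varied widely between the leave-one-out fits, so these ranges are not specific to the members. With the other WT pair, NP KO again had 2 called members, Jarid2 and Epop in place of Jarid2 and Phf19, and Phf19 turned to 0.29. Phf1 in KO-L against KO-L3D was called 0 times both at baseMean of at least 100, which Phf1 in KO-L does not reach, and at an adjusted p under 0.01. The region results did not change with the window. Depth limits Phf1 and Phf19, the members with the fewest reads. The cause of changes under limma was not tested.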
